A study of Oryza sativa Japonica Group with 6 samples.

Results

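The transcripts described here fell at least 2-fold in seedlings of the rice mutant osino80 and were expressed in the wild type (WT). They were chosen by their levels in these libraries, in counts per 1000000 (CPM), each count being divided by the total of its library. A locus was taken when its mean WT level was at least 4 CPM, its mean osino80 level was at most 0.5 of that, and its highest osino80 library lay below its lowest WT library. Of the 16423 loci with at least 4 CPM in WT, 90 met these conditions, which is 0.548%. Of these, 10 lie in numbered stretches of chromosomes 2, 4, 5 and 11 that were left out by locus number, which leaves 80 loci of the 55801 in the count table. The osino80 group carried the genotype osino80-2 and the other group was wild-type, both in the cultivar Nipponbare, sampled as untreated seedlings aged 14 days from chambers on an SD photoperiod, with 3 libraries each. All values come from mRNA-seq of seedling material with mixed cells, in which fewer cells of a type and less RNA per cell cannot be told apart. The same 6 libraries chose the loci, so their difference between genotypes is given as a description with no test.

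INO80 is an ATPase that drives a chromatin remodelling complex. Such complexes use ATP to slide nucleosomes or to exchange their histones, and so affect how accessible a gene is to the machinery that transcribes it. INO80 complexes are known for work at promoters, in the handling of the histone variant H2A.Z and in DNA repair, from yeast to plants. The locus taken as OsINO80 from its published number, LOC_Os03g22900, had 3731, 3792 and 4034 counts in the osino80 libraries and 8671, 8074 and 7404 counts in the WT libraries. Its level was 60.8 ± 0.709 CPM in osino80 and 118 ± 2.28 CPM in WT (SD, n = 3 each; log2 fold change -0.97 ± 0.03, SE, with an edgeR adjusted p of 2.56e-115). The osino80 level was 51.4% of WT, just above the limit of 50%, so OsINO80 itself is not among the 80 loci. The files do not pair this number with a name, and the labels do not say what the osino80-2 allele is.

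Total counts were 61881971 to 66097710 in the osino80 libraries and 61426662 to 73293481 in the WT libraries. Nothing in the labels says that the libraries of a genotype were grown or extracted separately. The p-values therefore measure the spread among these 6 libraries alone, and that spread may be technical. Some marker transcripts also differed between the genotypes. The 6 green leaf markers (Rubisco small subunits and light-harvesting proteins, which define leaf tissue) summed to 48738 to 50035 CPM in osino80 and 47751 to 48579 CPM in WT, with 2 of them higher and 3 lower. The 4 root markers, of which 3 were tested and 1 was higher, summed to 20.6 to 21.3 CPM in osino80 and 16.1 to 17.2 CPM in WT. Most of that sum was the 1 higher marker, LSI1, at 19.8 ± 0.496 CPM in osino80 and 15.4 ± 0.621 CPM in WT (SD, n = 3 each). The root marker PIP2;5 did not pass (edgeR adjusted p = 0.935). The root sum was far below the green leaf sum in both genotypes, and how much root the libraries hold was not tested. The 3 secondary wall markers, all higher in osino80, summed to 671 to 686 CPM in osino80 and 541 to 545 CPM in WT. The 4 shoot apex markers, 2 of them at 0 in every library, summed to 0.129 to 0.514 CPM in osino80 and 0.136 to 0.293 CPM in WT. No marker is among the 80 loci, and the part of tissue makeup in their fall was not tested.

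Most of the 80 transcripts were of modest abundance and kept between 25% and 50% of their WT level. Their mean osino80 levels ran from 0.126 to 257 CPM with a median of 3.27 CPM, and their mean WT levels from 4.06 to 1127 CPM with a median of 9.09 CPM. The median WT level over all 16423 expressed loci was 23.0 CPM, so the falling loci sat low in that range, and 30 of the 80 had a WT level under 6 CPM. The share of the WT level that remained in osino80 had a median of 38.5%. It was at most 33.3% in 32 loci, at most 25% in 18, at most 20% in 12 and at most 10% in 3, while 36 loci kept 40% to 50%. The same conditions turned round, with osino80 as the higher genotype and a level of at least 4 CPM there, were met by 135 loci. That count leaves out no locus by number, so its counterpart among the falling loci is 90 and not 80. The test across all 24914 loci with enough counts, edgeR's quasi-likelihood test, called 19.1% of them lower and 18.4% higher at an adjusted p under 0.05. It called 78 of the 80 lower, a count that says nothing beyond the rule because the same libraries chose them.

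**Figure D1:**
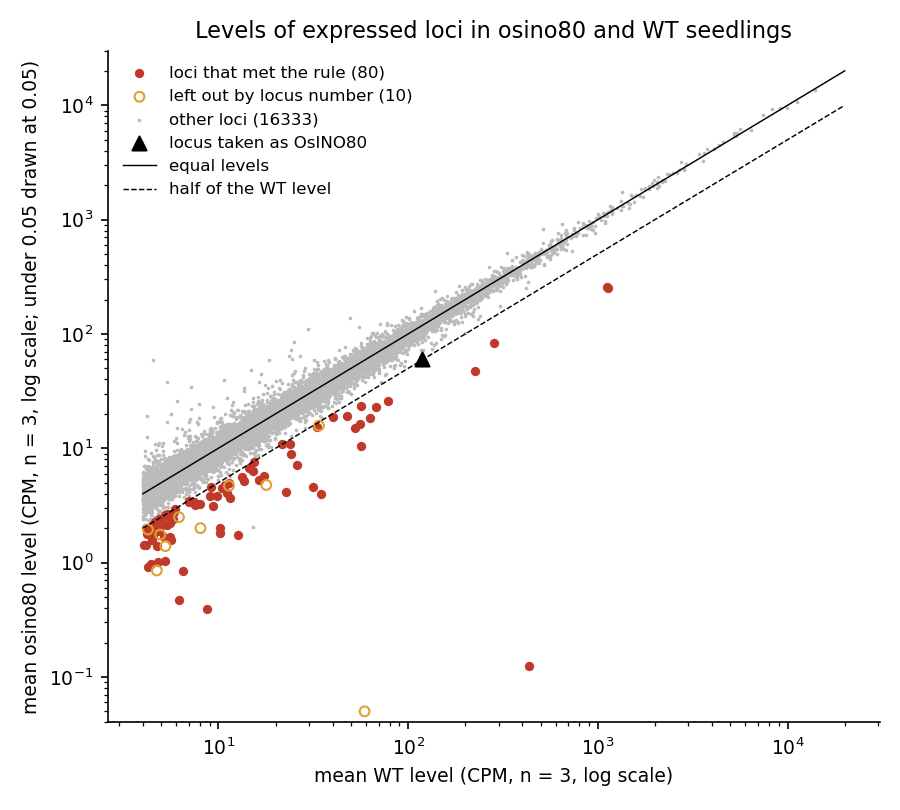
Mean level in osino80 (vertical axis) against mean level in WT (horizontal axis), both in CPM on log scales, for the 16423 loci with at least 4 CPM in WT; each point is 1 locus and means are over 3 libraries. The 80 loci that met the rule lie on or below the dashed line of 50% of the WT level, the 10 left out by locus number are open circles, and the locus taken as OsINO80 sits just above the line at 60.8 and 118 CPM.

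A few abundant transcripts carried most of the fall in summed level. The 80 loci together gave 1043, 1047 and 1036 CPM in the osino80 libraries and 4302, 4377 and 4403 CPM in the WT libraries. The 3 most abundant loci accounted for 65.1% of that difference. The 2 most abundant, LOC_Os12g37260 and LOC_Os12g14440, made up 51.3% of the summed WT level, and they are both on chromosome 12. LOC_Os12g37260 had 256, 250 and 253 CPM in the osino80 libraries and 1106, 1136 and 1140 CPM in the WT libraries, 22.5% of WT. LOC_Os12g14440 had 256, 260 and 256 CPM in osino80 and 1088, 1125 and 1120 CPM in WT, 23.2% of WT. These loci reached nearly the same level in each genotype, and within a genotype their libraries stood close together.

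The deepest fall was that of LOC_Os10g22630, which was close to silent in mutant seedlings. Its counts were 10, 4 and 10 in the osino80 libraries and 31853, 29818 and 26679 in the WT libraries. These are 0.126 ± 0.0529 CPM in osino80 and 432 ± 3.55 CPM in WT (SD, n = 3 each), so that 0.0290% of the WT level remained, a 3445-fold fall. It had the third highest WT level of the 80 loci and the lowest osino80 level, and the next deepest fall was 22.4-fold. None of the 80 had 0 counts in an osino80 library, and in 6 the mean osino80 level was under 1 CPM. Counts as few as those of LOC_Os10g22630 may hold both reads of a pair, and whether they arose from this locus was not tested.

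The other falls among the 10 largest were 5.36-fold to 13.2-fold, apart from LOC_Os07g33997, whose libraries disagreed and which is described further on. LOC_Os03g58320 had 0.386, 0.388 and 0.635 CPM in osino80 and 6.49, 6.41 and 5.73 CPM in WT, 7.56% of WT. LOC_Os08g07100 had 4.07, 3.43 and 4.49 CPM in osino80 and 35.0, 35.3 and 34.0 CPM in WT, 11.5% of WT. LOC_Os11g10590 had 0.819, 1.05 and 0.651 CPM in osino80 and 6.37, 6.33 and 6.79 CPM in WT, 12.9% of WT. The rule required every WT library to lie above every mutant library, and in these 3 the WT libraries also lay within a narrow band. LOC_Os01g23710 had 2.06, 1.81 and 1.41 CPM in osino80 and 12.2, 12.0 and 13.8 CPM in WT, 13.9% of WT. LOC_Os12g27220 had 4.595, 4.56 and 4.74 CPM in osino80 and 30.6, 33.2 and 30.7 CPM in WT, 14.7% of WT. LOC_Os05g11320 had 3.71, 4.67 and 4.10 CPM in osino80 and 22.6, 21.7 and 24.1 CPM in WT, 18.2% of WT. LOC_Os12g27254, the tested locus next to LOC_Os12g27220, kept 18.6% of its WT level. It had 11.2, 9.81 and 10.6 CPM in osino80 and 58.1, 55.1 and 56.0 CPM in WT.

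**Figure D2:**
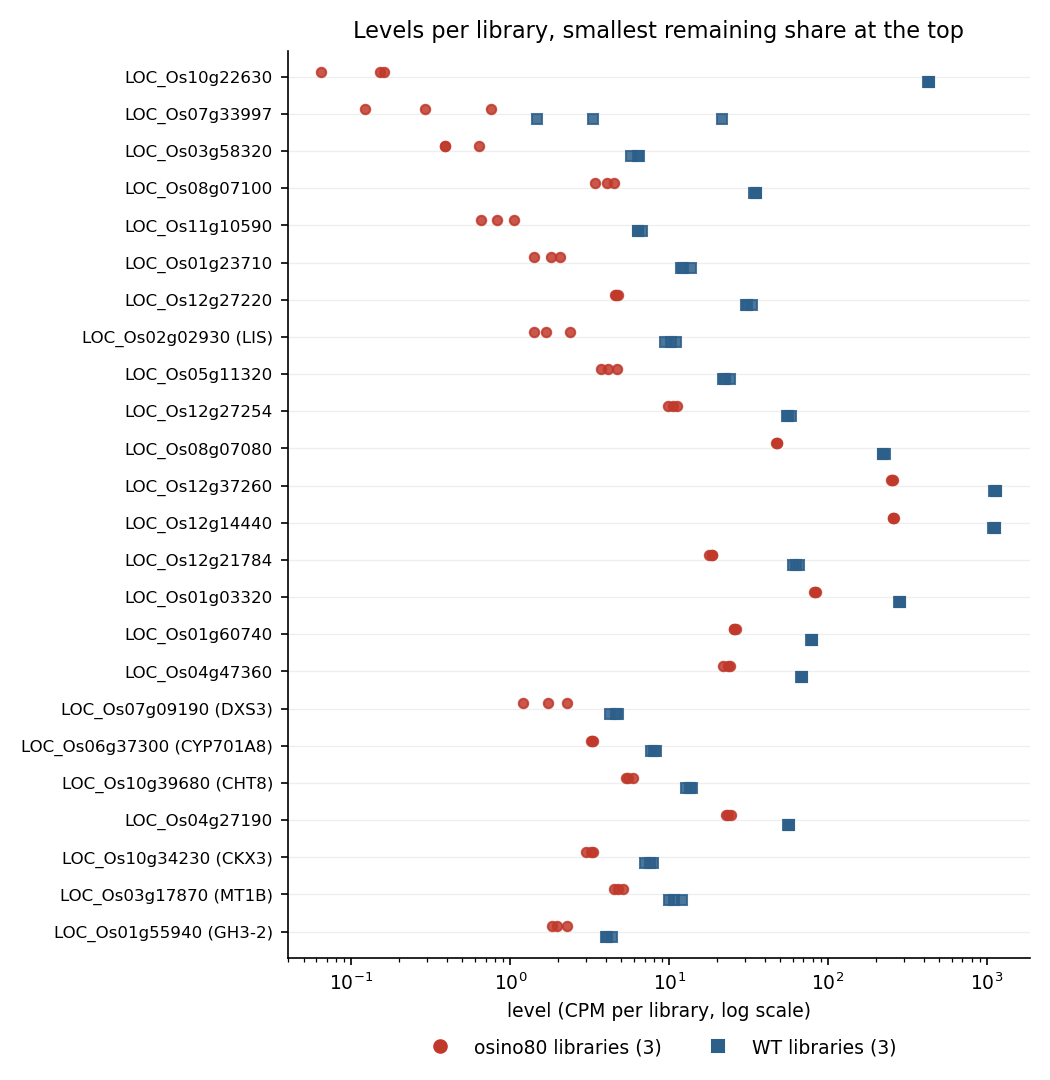
Level in CPM on a log scale (horizontal axis) in each of the 3 osino80 libraries (circles) and 3 WT libraries (squares) for 24 of the 80 loci: the 10 with the smallest share of WT, the 10 highest in WT and those with a checked name, ordered by the share of the WT level that remained. The rule itself separates the groups in every locus; LOC_Os10g22630 is the widest apart at 0.126 and 432 CPM, and LOC_Os07g33997 has the most scattered WT libraries, at 3.30, 21.5 and 1.47 CPM.

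Among the 10 most abundant loci the libraries of a genotype stood close together, except for the few osino80 counts of LOC_Os10g22630. LOC_Os01g03320 had 83.3, 84.1 and 81.0 CPM in osino80 and 284, 281 and 285 CPM in WT, 29.3% of WT. LOC_Os08g07080 had 47.8, 48.0 and 47.2 CPM in osino80 and 229, 222 and 223 CPM in WT, 21.2% of WT. LOC_Os01g60740 had 26.4, 25.5 and 25.6 CPM in osino80 and 78.7, 77.9 and 79.5 CPM in WT, 32.8% of WT. In each of them the distance between genotypes was many times the distance between libraries of 1 genotype. The rule chose loci whose genotypes lie apart, so this is description only. LOC_Os04g47360 averaged 23.1 ± 1.26 CPM in osino80 and 68.1 ± 0.820 CPM in WT (SD, n = 3 each), 33.9% of WT. LOC_Os12g21784 averaged 18.3 ± 0.440 CPM in osino80 and 63.0 ± 2.94 CPM in WT, 29.0% of WT. LOC_Os04g27190 averaged 23.5 ± 0.970 CPM in osino80 and 56.2 ± 0.5499 CPM in WT, 41.9% of WT. With the 2 loci on chromosome 12, LOC_Os10g22630 and LOC_Os12g27254, these are the 10 highest in WT.

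Of the 80 loci, 7 carry a gene name that could be checked against the reference table of rice genes, and 3 of these belong to isoprenoid and terpene synthesis. Terpenes are built from isoprenoid units, part of which plants make in the plastid, and rice uses them as volatiles, hormones and antimicrobial phytoalexins. DXS3 (LOC_Os07g09190), a 1-deoxy-D-xylulose 5-phosphate synthase of the first step of the plastid route, had 1.72, 2.26 and 1.21 CPM in osino80 and 4.75, 4.22 and 4.61 CPM in WT. It kept 38.2% of its WT level. LIS (LOC_Os02g02930), a linalool synthase that makes a volatile monoterpene alcohol, had 1.41, 2.36 and 1.68 CPM in osino80 and 11.1, 10.2 and 9.46 CPM in WT. It fell furthest of the 7, to 17.7% of WT. CYP701A8 (LOC_Os06g37300), a cytochrome P450 of diterpenoid metabolism, had 3.26, 3.30 and 3.24 CPM in osino80 and 7.64, 8.25 and 8.03 CPM in WT, 41.0% of WT. All 3 were weakly expressed in both genotypes. LIS and DXS3 were looked up after they were seen among the 80.

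A pair of the named loci act on growth hormones. CKX3 (LOC_Os10g34230), a cytokinin oxidase that breaks cytokinins down, had 2.99, 3.20 and 3.31 CPM in osino80 and 7.94, 7.04 and 7.62 CPM in WT, 42.0% of WT. GH3-2 (LOC_Os01g55940), an enzyme that joins auxin to amino acids and so lowers free auxin, had 1.96, 1.83 and 2.27 CPM in osino80 and 4.37, 4.01 and 4.05 CPM in WT. It kept 48.7% of WT and was close to both limits of the rule. The remaining pair was likewise looked up after it was seen among the 80. MT1B (LOC_Os03g17870), a metallothionein, one of the small cysteine-rich proteins that bind metal ions, had 4.48, 5.15 and 4.74 CPM in osino80 and 10.7, 12.1 and 9.96 CPM in WT, 44.0% of WT. CHT8 (LOC_Os10g39680), a chitinase, an enzyme that cuts the chitin of fungal walls, had 5.90, 5.37 and 5.48 CPM in osino80 and 13.4, 14.0 and 12.7 CPM in WT, 41.7% of WT. The other 73 loci are given by identifier only.

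Cytokinin genes that did not meet the rule moved in both directions, while the 1 auxin and 1 terpene gene that passed the edgeR test were lower. Of the 10 other tested cytokinin genes 6 were higher, 1 was lower and 3 did not pass the edgeR test, which called 18.4% of all tested loci higher and 19.1% lower. CKX4, another cytokinin oxidase, had 11.5 ± 0.538 CPM in osino80 and 7.71 ± 0.365 CPM in WT (SD, n = 3 each; log2 fold change 0.57 ± 0.09, edgeR adjusted p = 2.88e-09). CKX9 was higher by 0.35 and CKX2 by 0.48 on the log2 scale, while CKX11 was lower, at -0.14, and CKX5, at -0.18, did not pass (edgeR adjusted p = 0.384). So the fall of CKX3 stood beside higher levels of 3 other oxidases of its family. LOG, which activates cytokinins, and the response regulators RR4 and RR1 were higher by 0.15, 0.31 and 0.26. Of the other 2 tested GH3 genes, GH3-8 was lower, at 0.327 ± 0.147 CPM in osino80 and 0.740 ± 0.162 CPM in WT (log2 fold change -1.19 ± 0.40, edgeR adjusted p = 0.0107), and GH3-1, at 0.14, did not pass. The only other tested gene of the short terpene list used here, the diterpene synthase KSL10, was lower, at 0.933 ± 0.237 CPM in osino80 and 1.43 ± 0.0648 CPM in WT (log2 fold change -0.62 ± 0.25, edgeR adjusted p = 0.0374).

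Over all 21 lists of named rice genes, 144 tested genes were not among the 80, and 50 of them (34.7%) were higher and 29 (20.1%) lower. Over all tested loci 18.4% were higher and 19.1% lower, so the listed genes had a larger share of higher calls and a like share of lower ones, a difference that was not tested. No list other than those of cytokinin, auxin and terpene genes held one of the 80 loci. In the 2 largest of the others, 4 of 14 tested stress genes were lower and 3 higher, and 10 of 13 wall genes were higher, to be read against the same 18.4% higher and 19.1% lower over all tested loci.

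The 80 loci had wider relative spreads between libraries than the expressed loci as a whole, and 2 of them rested on 1 library. The coefficient of variation (SD over mean) had quartiles of 4.93% and 17.8% in osino80 and 2.92% and 8.31% in WT over the 80. Over the 16423 expressed loci, whose levels were higher, the quartiles were 2.21% and 6.45% in osino80 and 2.11% and 6.29% in WT. The lowest WT library was at least 2 times the highest osino80 library in 48 loci and under 1.5 times in 1. LOC_Os10g34930 had the most even WT libraries, with 3.76, 3.88 and 3.90 CPM in osino80 and 9.005, 9.05 and 8.94 CPM in WT. LOC_Os05g25950 was among the least even, with 1.17, 1.16 and 1.88 CPM in osino80 and 4.31, 5.88 and 4.14 CPM in WT. No library was the highest of its genotype much more often than the others: the counts were 20, 31 and 29 loci for osino80 replicates 1 to 3 and 24, 28 and 28 for WT.

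LOC_Os07g33997 had 0.289, 0.760 and 0.121 CPM in osino80 and 3.30, 21.5 and 1.47 CPM in WT. Its share of the WT level was 4.46% over all libraries, 16.4% without WT replicate 2 and 2.34% without osino80 replicate 2. WT replicates 1 and 3 were both under 4 CPM, so without WT replicate 2 it would not meet the rule. LOC_Os11g01154 had 9.33, 9.32 and 7.87 CPM in osino80 and 12.5, 12.1 and 48.0 CPM in WT. It kept 36.5% of WT over all libraries and 71.9% without WT replicate 3, where it would not meet the rule. These are the 2 loci of the 80 that edgeR did not call lower. With each library left out in turn, 63 of the 80 loci met the rule every time. Of the other 17, 15 had a WT level under 5 CPM or kept over 45% of WT, close to the limits of the rule.

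The limits of the rule cut through a continuous range. Just inside the limit of 50% lay LOC_Os03g14420 at 49.5%, LOC_Os02g37920 at 49.6% and LOC_Os03g58100 at 49.7% of WT, and just outside it LOC_Os01g06310 at 50.05%, LOC_Os11g43404 at 50.9% and LOC_Os01g11054 at 51.2%. Between 45% and 50% of WT there were 20 loci that met the other conditions, and between 50% and 55% there were 26. The lowest WT means inside the rule were 4.06 CPM for LOC_Os04g33920 and 4.14 CPM for GH3-2, and the highest outside it 3.86 CPM for LOC_Os06g16150. One locus, LOC_Os07g33898, failed by the overlap of its libraries alone, with 0.145, 0.420 and 5.598 CPM in osino80 and 0.218, 0.0575 and 45.4 CPM in WT.

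The 50 loci that are not described one by one by the rule for named genes had mean osino80 levels of 0.921 to 19.0 CPM and mean WT levels of 4.06 to 55.6 CPM. They kept 19.8% to 49.5% of the WT level with a median of 40.1%. Over all 80, the lowest WT library of a locus held 90 to 70046 counts with a median of 565. The 90 counts were those of LOC_Os07g33997, and counts may hold both reads of a pair. In osino80 the highest library of a locus held 10 to 16913 counts with a median of 222.

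The 80 loci were spread over all 12 chromosomes. Chromosome 12 held 12 of them among 893 expressed loci, or 1.34%. Chromosome 11 held 8 of 783 (1.02%) with the left-out stretches taken out of both numbers, and 12 of 821 (1.46%) with them in both, so which of these chromosomes had the higher share turned on what was left out. On chromosome 2 the share was 4 of 1943 (0.206%) without the left-out stretch and 8 of 1948 (0.411%) with it. Chromosome 10 held 6 of 809 (0.742%), chromosome 1 held 15 of 2338 (0.642%) and chromosome 9 held 2 of 898 (0.223%), none of them with a left-out locus. The other 6 chromosomes lay between 0.282% and 0.532% without the left-out loci. The 12 loci of chromosome 12 lay between places 575 and 1055 of its 1434 tested loci in locus number order. Those of chromosome 6 lay between places 943 and 2007 of 2037, and those of chromosome 10 between 441 and 1120 of 1347. No test of these shares was made.

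**Figure D3:**
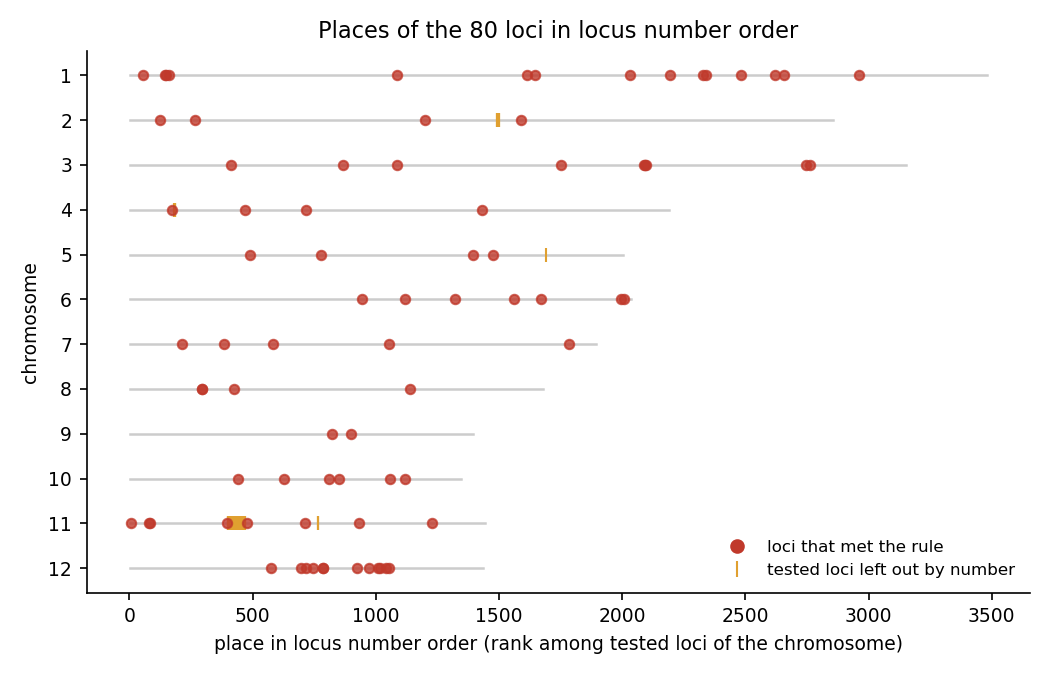
Place of each of the 80 loci (circles) along each of the 12 chromosomes (vertical axis), as the rank among the tested loci of the chromosome in locus number order (horizontal axis); grey lines span all tested loci of a chromosome and short bars mark tested loci left out by locus number. On chromosome 12 all 12 circles lie between ranks 575 and 1055, on chromosome 6 between 943 and 2007, and on chromosome 10 between 441 and 1120. There are a few close pairs.

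Few of the loci were next to each other. Among tested loci, 3 pairs stood side by side, and no run reached 3. LOC_Os08g07080 and LOC_Os08g07100 kept 21.2% and 11.5% of WT, and LOC_Os12g27220 and LOC_Os12g27254 kept 14.7% and 18.6%. In the third pair LOC_Os03g46060 kept 21.5% and LOC_Os03g46070 kept 43.1% of WT. The partners' falls were 4.72-fold and 8.70-fold in the pair on chromosome 8, 6.80-fold and 5.36-fold in that on chromosome 12, and 4.64-fold and 2.32-fold in that on chromosome 3. In a looser pair, LOC_Os01g03320 and LOC_Os01g03360, both tested loci in between were lower too without meeting the rule. LOC_Os01g03340 had 73.3 ± 4.52 CPM in osino80 and 133 ± 5.19 CPM in WT (SD, n = 3 each; log2 fold change -0.87 ± 0.03, edgeR adjusted p = 1.64e-57). LOC_Os01g03330 had 11.1 ± 0.257 CPM in osino80 and 14.7 ± 0.957 CPM in WT (log2 fold change -0.41 ± 0.08, edgeR adjusted p = 1.10e-06). All 4 loci of that stretch were thus lower. Between LOC_Os03g45960 and LOC_Os03g46060, 2 of 4 tested loci were lower in the edgeR test, and between LOC_Os11g02520 and LOC_Os11g02540 the single tested locus did not pass (edgeR adjusted p = 0.542). Whether partners share sequence, so that reads could be split between them, was not tested.

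The tested loci next to the 80 included many that were lower as well. A neighbour that itself met the rule or lay in a left-out stretch was passed over, so the rule took large falls of expressed loci out of the neighbours. Of 153 such neighbours, the nearest on each side outside the set, 52 (34.0%) were lower and 27 (17.6%) higher in the edgeR test, against 19.1% and 18.4% over all tested loci. Over the 24742 tested loci that are neither among the 80 nor left out, 18.8% were lower and 18.5% higher. The median log2 fold change of the neighbours was -0.06, against 0.00 over all tested loci. By at least 2-fold, 11 neighbours (7.19%) were lower and 6 (3.92%) higher, against 0.946% and 2.41% of those 24742. These 17 neighbours all had under 4 CPM in WT. Among the 93 neighbours with at least 4 CPM in WT, 36 (38.7%) were lower and 17 (18.3%) higher. Over all 16298 tested loci at that level that are neither among the 80 nor left out, these neighbours included, 24.99% were lower and 20.9% higher. With the 2 nearest loci on each side, 82 of 303 (27.1%) were lower and 52 higher. Around the loci that stand alone, 49 of 147 neighbours (33.3%) were lower and 26 higher. The difference between these shares was not tested, and whether neighbours overlap on the genome was not tested either.

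A few neighbours moved by large amounts in either direction. LOC_Os12g27210, next to the pair on chromosome 12, had 0, 0 and 2 counts in osino80 and 20, 18 and 20 counts in WT (edgeR adjusted p = 1.18e-05). LOC_Os12g36840, next to LOC_Os12g36850, had 5, 6 and 0 counts in osino80 and 50, 30 and 25 counts in WT (log2 fold change -3.10 ± 0.60, edgeR adjusted p = 3.67e-06). Both were weakly expressed even in WT. In the other direction, LOC_Os01g60750, next to LOC_Os01g60740, had 231, 241 and 263 counts in osino80 and 0 in every WT library (edgeR adjusted p = 4.26e-68). LOC_Os12g24790, next to LOC_Os12g24800, had 104, 134 and 160 counts in osino80 and 28, 18 and 25 counts in WT (log2 fold change 2.57 ± 0.28, edgeR adjusted p = 1.75e-17). A falling locus could thus stand beside one that rose.

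**Figure D4:**
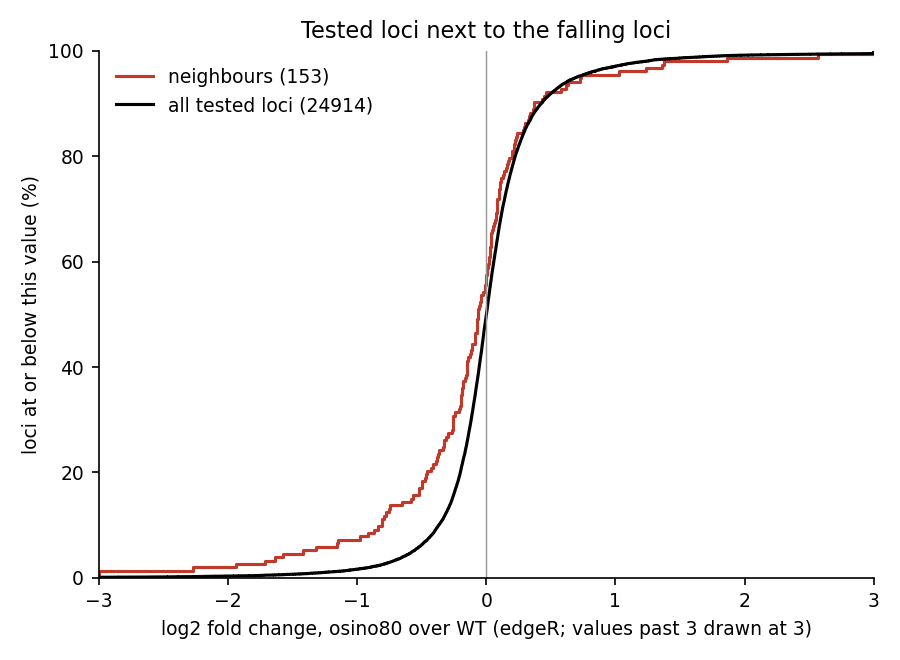
Share of loci (vertical axis, %) with a log2 fold change of osino80 over WT at or below the value on the horizontal axis, for the 153 tested neighbours of the falling loci and for all 24914 tested loci; values past 3 are drawn at 3. The curve of the neighbours lies above that of all tested loci on the falling side, with medians of -0.06 and 0.00, and the curves run close together on the rising side.

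The deposited table of transcripts per 1000000 (TPM), a second summary of the same libraries in which levels are scaled by transcript length, gave nearly the same picture. In TPM 79 of the 80 loci were lower in osino80, 77 were at most 50% of WT and 79 had no overlap between genotypes with osino80 lower. These counts say little beyond the rule, because the same libraries chose the loci. For 74 loci the 2 ratios of osino80 to WT were within 10% of each other. The summed level of the 80 was 1201, 1189 and 1169 TPM in the osino80 libraries and 4640, 4703 and 4746 TPM in the WT libraries. Per length the order at the top of WT changed: LOC_Os12g14440 led with 1372 TPM, ahead of LOC_Os12g37260 with 625, LOC_Os10g22630 with 532 and LOC_Os01g03320 with 507 TPM. The 80 loci had a median of 0.877 CPM per TPM in WT, against 1.19 over expressed loci, a ratio that grows with transcript length.

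The exceptions in TPM were the loci that 1 library decided, and 1 more. LOC_Os07g33997 was higher in osino80, with 8.70 TPM against 0.407 TPM in WT, the opposite of its counts. Its TPM values were 23.5, 1.31 and 1.27 in the osino80 libraries and 0.502, 0.288 and 0.431 in the WT libraries. Osino80 replicate 1 held 18 counts and WT replicate 2 held 1495, so its TPM did not follow its counts scaled by 1 length. The reason was not tested. Without osino80 replicate 1 the osino80 mean was 1.29 TPM and the ratio to WT 3.17, against 21.4 with it. LOC_Os11g01154 kept 70.7% of its WT level in TPM, close to the 71.9% from counts without WT replicate 3. LOC_Os12g35940 kept 56.6% in TPM and 37.9% in CPM. LOC_Os10g22630 kept 0.0305% in TPM and 0.0290% in CPM, so its near loss stood in both tables.

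**Figure D5:**
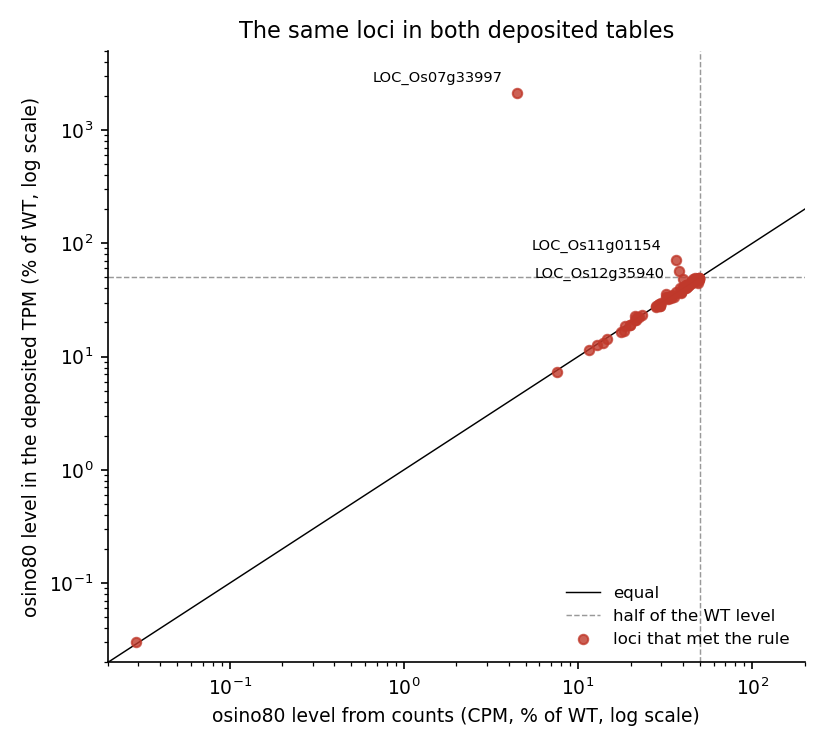
The osino80 level as a percent of WT in the deposited TPM (vertical axis) against that from counts in CPM (horizontal axis), both on log scales, for the 80 loci; the solid line marks equal values and the dashed lines 50% of the WT level. Of the 80 points 77 lie at or below 50% in TPM, and the 3 labelled loci above it are LOC_Os07g33997, LOC_Os11g01154 at 70.7% and LOC_Os12g35940 at 56.6%.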

How the data were processed

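Poly(A) RNA of 3 osino80 and 3 WT libraries was sequenced, with strand-specific libraries per the labels' protocols. The authors deposited raw counts per locus and a table of TPM; the submitters' processing notes name featureCounts, HISAT2, SAMtools and cutadapt. No source used here gives versions, genome build, annotation, strand setting, the handling of multi-mapping reads or the making of TPM. In each library 82.4% to 83.7% of counts from 1 to 20 were even, so counts may hold both reads of a pair.

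CPM used the column sums. Other loci were tested with edgeR 4.0.16 (filterByExpr, TMM, glmQLFit with robust=TRUE, glmQLFTest, R 4.3.3), two-sided, with Benjamini-Hochberg adjustment over 24914 loci and a threshold of 0.05, tested on simulated data. DESeq2 1.42.0 and limma 3.58.1 were alternatives. Deviations of libraries with the same number were correlated by 0.0162, 0.0036 and 0.0276, so the numbers were not used as pairs. No libraries were duplicates (chi-square per degree of freedom 3.60 to 4.07).

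Members and lists were chosen with earlier results of these data known. Named loci are the 10 largest falls, the 10 highest in WT, those with a checked name, those nearest the limits, and the 3 most and 3 least even in WT. A name is printed only where the RefSeq table (ASM3414082v1) places it within 0.5 Mb of where its locus number falls, which held for 167 of 301 names written down. Of 12 names among the 80 loci, 7 passed. Sequences and coordinates are not used here.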

Additional observations from a re-analysis of the deposited data

How the results depend on the processing

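The number of loci that met the rule was 42 with a mean WT level of at least 8 CPM and 32 with at most 33.3% of WT; both conditions are stricter by construction. It was 81 under TMM or median-of-ratios scaling, 108 with at least 2 CPM, 81 with overlap allowed, and 73 to 77 with each library left out in turn. Applied to the deposited TPM the rule gave 83 loci, 69 of them among the 80. LOC_Os07g33997 reversed in TPM, with a log2 ratio of 4.42, or 1.67 without osino80 replicate 1; the cause was not tested.

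With the replicate number as a block, 4773 loci were lower and 4556 higher, and 53 neighbours were lower and 27 higher; the numbers do not pair the libraries. With each library left out in turn, 44 to 50 neighbours were lower and 18 to 24 higher, and 23 to 28 genes of the lists were lower and 41 to 50 higher. With another scaling, low-count filter, tool or unit, no count of neighbours, list genes or tested loci moved by more than 1.5 times. With the 2 nearest loci on each side or with neighbours of at least 4 CPM in WT, which change how many loci are counted, the shares lower and higher moved by less than 1.5 times. The alternatives on loci standing alone, on neighbours with at least 4 CPM in WT and on CPM and TPM together were chosen after seeing the data. Loci with few counts in osino80 have the least precise shares, and p-values cover only the spread between these libraries.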
